A study of Mus musculus with 4 samples.

Results

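Gamma delta T-cell genes are genes known to mark T cells whose antigen receptor is built from gamma and delta chains. The 8 genes described here were Cd163l1, Trgv1, Sox13, Maf, Il23r, Zbtb16, Etv5 and Blk. They were chosen by name, as a set in which 2 genes had high signals on both leukemias with AF4-MLL alone and signals below the pooled median on the mixed lineage array. The signals on all 4 arrays therefore chose the set, and every value below is a description with no test. Of the 8 genes, 7 had a probe set annotated to exactly 1 gene, among 18193 such genes in all, and these 7 were measured by 17 probe sets. Il23r, the receptor chain for interleukin 23, is not analysed here. All 7 measured genes exceeded the floor on at least 1 array, and 3 of them (Maf, Etv5 and Blk) on all 4 arrays.

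The series holds 4 mouse samples with 1 array each, under a series title that names C57BL6 mice. The mixed lineage leukemia arose from blood stem and precursor cells carrying the AF4-MLL and the MLL-AF4 fusion together. The acute lymphoblastic leukemia of proB type (proB ALL) and the acute leukemia of B/T biphenotypic type (B/T BAL) arose from such cells carrying AF4-MLL alone. The control was normal bone marrow, and neither ages nor the promoter driving the fusions are given in the sources used here. Leukemic cells came from the marrow of moribund mice and were typed by flow cytometry without sorting, so each leukemia array may also hold RNA of resident marrow cells. Each group was 1 array, so the values have no replicate error and no replicate check.

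T cells with a gamma delta receptor branch off from other T cells in the thymus. Rearrangement of the T-cell receptor gamma locus there joins a V segment such as Trgv1 to a J segment. Some of them become innate-like cells that make interleukin 17, a programme in which Sox13 and Maf are transcription factors, Blk is a Src family kinase and the interleukin 23 receptor receives the inducing cytokine. Cd163l1 (also called Scart1) encodes a scavenger receptor of the cysteine-rich family that marks gamma delta T cells. Zbtb16 (PLZF) is a transcription factor of innate-like lymphocytes, and Etv5 is an ETS factor also expressed in this programme.

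The arrays shared 1 global scale, with a mean of 1000 after trimming 2% of probe sets at each end. The floor was set at 189, the median signal over all probe sets and arrays, and 46.3% to 57.4% of probe sets lay above it on an array, with the highest share on the mixed lineage array. Signals are MAS5 values on a linear scale. Differences are log2 values after adding 51.4, the 25th percentile of all signals, and understate the change of dim genes. A gene was called higher or lower where this difference reached 2-fold and the brighter signal exceeded the floor. A fold is the ratio of linear signals, and where the dimmer signal lay at or below the floor the floor took its place and the fold is printed with "at least". Series of 4 signals are given in the order normal marrow, B/T BAL, proB ALL and mixed lineage leukemia.

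Cd163l1 was bright on both AF4-MLL only arrays and below the floor on the others. Its representative probe set had a signal of 34.2 in normal marrow, 13017 in B/T BAL, 19681 in proB ALL and 45.9 in mixed lineage leukemia. The signals of mixed lineage leukemia and normal marrow lay below the floor, and those of both AF4-MLL only leukemias lay far above it. Against normal marrow the signal was at least 104-fold higher in proB ALL and at least 69.0-fold higher in B/T BAL. The other probe set of Cd163l1 had 14.9, 5184, 6545 and 179 on the same arrays, in the same order of high and low. The representative probe set carries a mark for possible cross-hybridisation, and the other one does not. Among the 14012 genes above the floor on at least 1 array, the log2 difference of Cd163l1 from normal marrow was the highest of all on the proB ALL array (7.85, rank 1) and had rank 2 on the B/T BAL array (7.25). Between the AF4-MLL only leukemias the log2 difference was 0.59, below the 2-fold limit.

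Cd163l1 (gene ID 244233) lies on chromosome 7 at 140197218 to 140231145 in GRCm38.p6, and the related scavenger receptor gene 5830411N06Rik (Scart2) follows it after 16133 bases. The probe set of 5830411N06Rik had 187 in normal marrow, 1995 in B/T BAL, 1405 in proB ALL and 289 in mixed lineage leukemia. It was thus also brighter on both AF4-MLL only arrays, at least 10.6-fold above normal marrow in B/T BAL and at least 7.45-fold in proB ALL. In 5830411N06Rik the mixed lineage signal lay above the floor, unlike that of Cd163l1. The windows below, from RefSeq on the forward strand of GRCm38.p6, are shown because these neighbours were bright on the same arrays. They run from 250 bases before to 50 after a transcript start. The window of Cd163l1 is chr7:140218017-140218316, which lies inside the annotated gene, and that of 5830411N06Rik is chr7:140247051-140247350, the first of 3 listed. Capitals mark matches on either strand to GGAAG (the core bound by ETS factors such as Etv5), ACAAT (a Sox core), AGGTCA (a site of ROR receptors) and TGCTGAC (a site of Maf factors).
Cd163l1: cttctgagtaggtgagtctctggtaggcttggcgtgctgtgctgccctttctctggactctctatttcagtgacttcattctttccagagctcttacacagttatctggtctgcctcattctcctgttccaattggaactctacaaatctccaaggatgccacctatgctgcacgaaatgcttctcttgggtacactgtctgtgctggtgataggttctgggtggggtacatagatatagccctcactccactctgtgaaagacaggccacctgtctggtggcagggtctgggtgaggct
5830411N06Rik: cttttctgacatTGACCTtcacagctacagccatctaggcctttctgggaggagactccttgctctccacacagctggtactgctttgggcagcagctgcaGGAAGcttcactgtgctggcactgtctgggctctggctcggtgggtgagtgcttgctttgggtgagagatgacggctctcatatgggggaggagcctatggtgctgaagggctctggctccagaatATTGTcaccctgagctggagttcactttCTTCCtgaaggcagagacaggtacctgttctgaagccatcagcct
The Cd163l1 window held none of the 4 motifs. That of 5830411N06Rik held 2 matches to GGAAG, 1 to ACAAT and 1 to AGGTCA, with no overlap between them. Over 32851 RefSeq windows of the same length, GGAAG was present in 71.4%, ACAAT in 31.0%, AGGTCA in 16.3% and TGCTGAC in 4.67%. These matches describe letters and not binding.

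**Figure D1:**
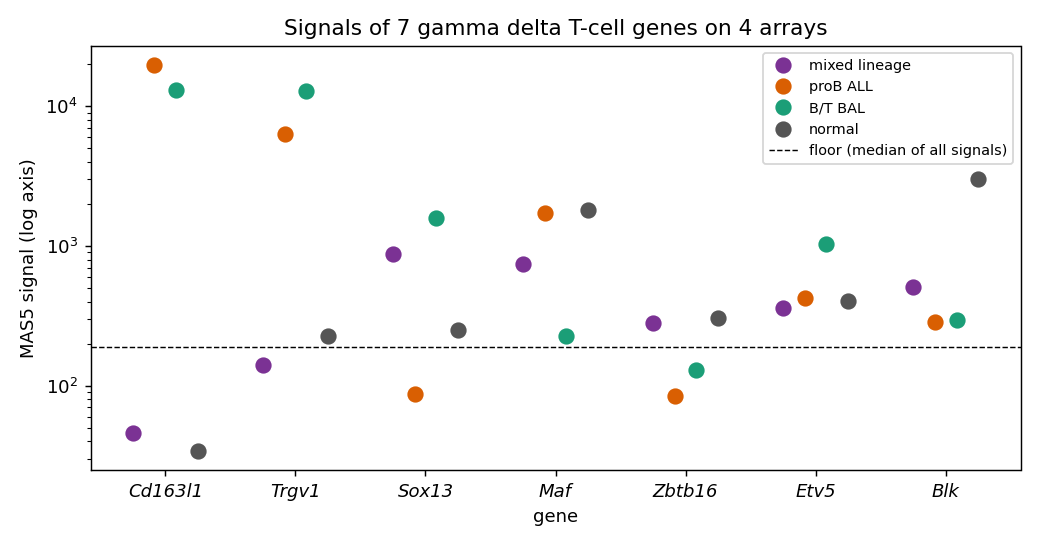
MAS5 signals (log axis) of the representative probe sets of 7 gamma delta T-cell genes, 1 point per array, with the floor of 189 as a dashed line. Cd163l1 and Trgv1 are high on the proB ALL and B/T BAL arrays alone, and Blk is highest in normal marrow with 3007.

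Trgv1, a variable segment of the T-cell receptor gamma chain, was the other gene that was high on both AF4-MLL only arrays. It lies on chromosome 13 at 19340016 to 19340454 (GRCm38.p6) and was measured by 1 probe set. Its signals were 228 in normal marrow, 12865 in B/T BAL, 6350 in proB ALL and 141 in mixed lineage leukemia. Against normal marrow it was 27.9-fold higher in proB ALL and 56.5-fold higher in B/T BAL. Between the latter arrays, B/T BAL was 2.03-fold above proB ALL, just past the 2-fold limit (log2 difference of proB ALL from B/T BAL, -1.01), and no longer past it with the pseudocount at the 50th percentile. The mixed lineage signal lay below the floor and the normal signal just above it.

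Trgv4, another variable segment of this locus, is the 1 further gamma chain gene with a probe set of its own. By its representative probe set it had 194 in normal marrow, 28524 in B/T BAL, 4382 in proB ALL and 148 in mixed lineage leukemia. A second probe set of Trgv4 had 320, 24616, 5552 and 63.4, with the same arrays high. The remaining probe set of Trgv4 had 13.5, 2294, 54.8 and 105, and was above the floor in B/T BAL alone. A probe set annotated to Trgv4 and Trgv2 together had 350, 40912, 8882 and 332. Gamma chain segments can be alike in sequence, and the sequences of the probes were not available. Which segments these probe sets detect was therefore not tested, and they are not taken as independent measures. The constant regions of the gamma and delta chains are not analysed here.

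The choice of the set fixed Cd163l1 and Trgv1 as the genes inside its threshold, above the floor on both AF4-MLL only arrays and at or below it on the mixed lineage array. Cd163l1 and Trgv1 lay below the floor of 189 on the mixed lineage array, at 45.9 and 141. Etv5, Blk and Maf also lay above the floor on both AF4-MLL only arrays and were outside by their mixed lineage signals of 361, 508 and 747.

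By the Euclidean distance between log2 values over the 4 arrays, the genes nearest to Cd163l1 outside the set were Sh2d1a at 1.92, Trnp1 at 2.72, Gpr25 at 2.90 and Trgv4 at 3.05. Nearest to Trgv1 were Trgv4 at 1.28, Sh2d1a at 1.30, Trnp1 at 1.33 and Nsg2 at 1.35. Sh2d1a, which encodes the lymphocyte signalling adaptor SAP, had 81.6 in normal marrow, 7934 in B/T BAL, 7061 in proB ALL and 116 in mixed lineage leukemia. It was near both genes, and a small distance by itself selects genes with the same arrays high. Distances over 4 arrays describe these samples only.

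The transcription factors of the set did not follow this pattern. Sox13, an HMG box factor of the SoxD family, had 249 in normal marrow, 1580 in B/T BAL, 87.9 in proB ALL and 879 in mixed lineage leukemia. It was highest in B/T BAL, 6.34-fold above normal marrow, and 3.53-fold above it in mixed lineage leukemia. In proB ALL it lay below the floor, at least 1.32-fold below normal marrow, a call that was lost under 4 of 9 alternatives. So the AF4-MLL only leukemias lay at opposite ends for Sox13, at least 8.38-fold apart. Of the other SoxD factors, Sox6 had 5239 in normal marrow against 136 in B/T BAL, 43.9 in proB ALL and 69.8 in mixed lineage leukemia, all 3 below the floor. Sox5 had 271 in mixed lineage leukemia and lay below the floor elsewhere. The list of erythroid genes was lower beside Sox6, with 3 of 4 measured genes lower on each leukemia array (14.7% to 17.0% of all genes). The list had summed signals of 511 to 912 in the leukemias against 66125 in normal marrow. Its part in the values of Sox6 was not tested.

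Maf, a large Maf factor, had 1803 in normal marrow, 227 in B/T BAL, 1717 in proB ALL and 747 in mixed lineage leukemia by its representative probe set. ProB ALL and normal marrow were near one another (log2 difference -0.07), and B/T BAL was the lowest, 7.96-fold below normal marrow. Its 6 probe sets did not agree on the other arrays. Against normal marrow, 3 of them were at least 2-fold higher in proB ALL and none lower, and in mixed lineage leukemia 2 were higher and 1 lower. The probe set with the second brightest signals had 386, 138, 1590 and 372 in the order given above. With the mean over the probe sets, the log2 difference of mixed lineage leukemia from normal marrow turned from -1.22 to 0.60. In B/T BAL 2 probe sets were lower and none higher, with log2 differences from -2.74 to 1.46. With the mean over probe sets the difference there was -0.65, short of 2-fold. Macrophages also express Maf, and all 8 macrophage genes were lower in B/T BAL (16.6% of all genes). In proB ALL 6 were lower (17.0%) and in mixed lineage leukemia 4 (14.7%). Their summed signals were 53499 in normal marrow, 12990 in B/T BAL, 21291 in proB ALL and 34364 in mixed lineage leukemia, with Adgre1 (F4/80), a macrophage surface protein, at 3283, 465, 465 and 2286. Their part in the values of Maf was not tested, and fewer cells of a type cannot be told apart from less RNA per cell in these bulk samples.

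Zbtb16 was dim on every array. Its representative probe set had 306 in normal marrow, 129 in B/T BAL, 84.9 in proB ALL and 281 in mixed lineage leukemia, so that both AF4-MLL only leukemias lay below the floor. A second probe set had 21.8, 140, 71.9 and 557, above the floor in mixed lineage leukemia alone. The last one had 326, 97.0, 153 and 123, above the floor in normal marrow alone. These probe sets therefore gave no common order of mixed lineage leukemia and normal marrow, and agreed in placing proB ALL and B/T BAL below the floor. Without probe sets marked for cross-hybridisation, the log2 difference of proB ALL from mixed lineage leukemia turned from -1.29 to 0.23.

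Etv5, of the PEA3 group of ETS factors, had 403 in normal marrow, 1032 in B/T BAL, 423 in proB ALL and 361 in mixed lineage leukemia. B/T BAL stood above the other arrays, 2.56-fold above normal marrow (short of 2-fold, at a log2 difference of 0.87, with the mean over probe sets), and the others were close together. The remaining 2 probe sets of Etv5 were dimmer, with 50.7, 166, 45.4 and 252 in one and 109, 143, 64.9 and 30.8 in the other. The first of these alone exceeded the floor, and in mixed lineage leukemia alone. Etv4, the other measured gene of this group and named outside the rule for named genes, lay below the floor on all 4 arrays.

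**Figure D2:**
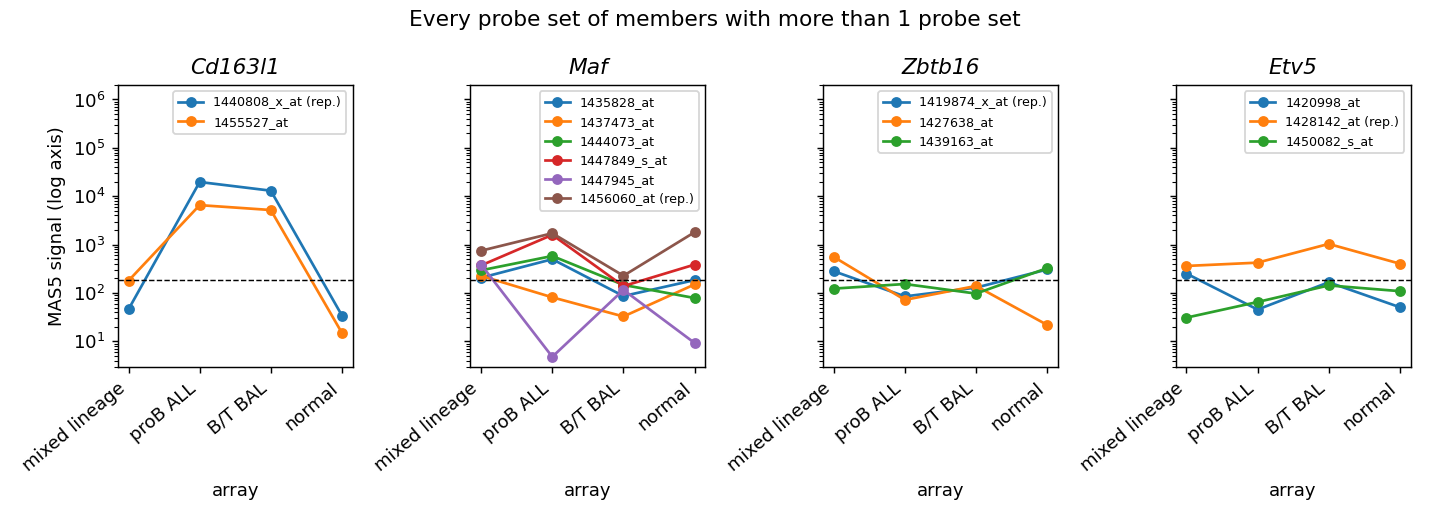
MAS5 signals (log axis) of every probe set of Cd163l1, Maf, Zbtb16 and Etv5 on the 4 arrays, with the floor of 189 as a dashed line and the representative probe set marked. Both probe sets of Cd163l1 lie above the floor on the proB ALL and B/T BAL arrays alone, while the 6 probe sets of Maf and the 3 of Zbtb16 differ in order.

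Blk, a Src family kinase that B cells express as well, was the gene of the set that was lower in all 3 leukemias. It had 3007 in normal marrow, 294 in B/T BAL, 288 in proB ALL and 508 in mixed lineage leukemia, by its 1 probe set. Every leukemia lay below normal marrow, by 5.92-fold in mixed lineage leukemia, 10.4-fold in proB ALL and 10.2-fold for B/T BAL, and the AF4-MLL only leukemias lay close together (log2 difference -0.03). B-cell genes were lower beside it. The mixed lineage array had 5 of 8 measured genes called lower (14.7% of all genes). The proB ALL array had 7 (17.0%), and the B/T BAL array 7 as well (16.6%). Of the 8, 7 exceeded the floor on at least 1 array, and only these could be called. The 8 genes had summed signals of 35429 in normal marrow, 1452 in B/T BAL, 4393 in proB ALL and 8203 in mixed lineage leukemia. Their part in the values of Blk was not tested. Of the related kinases, Fyn had 815 in normal marrow, 3283 in B/T BAL, 6550 in proB ALL and 659 in mixed lineage leukemia. Fyn, which acts below the T-cell receptor, was thus brighter on both AF4-MLL only arrays, by 4.03-fold in B/T BAL and 8.04-fold in proB ALL over normal marrow. Fgr, a myeloid kinase, had 4145, 1520, 1018 and 5281, lower on those same arrays. Src had 437, 195, 111 and 43.2, called lower in proB ALL and mixed lineage leukemia and just short of 2-fold in B/T BAL (log2 difference -0.98).

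In counts, the set did not move as one. Against normal marrow, 1 of 7 measured genes was higher in mixed lineage leukemia (18.4% of all 14012 genes were) and 2 were lower (14.7%). In proB ALL 2 were higher (10.7%) and 3 lower (17.0%), and in B/T BAL 4 were higher (14.4%) and 2 lower (16.6%). The normal array is common to these comparisons. The median log2 difference of the 7 genes was 1.25 in B/T BAL, -0.07 in proB ALL and -0.14 in mixed lineage leukemia, beside 0.05, -0.11 and 0.08 over all genes. Against mixed lineage leukemia, 3 were higher in proB ALL (15.3%) and 2 lower (26.9%), and 3 were higher in B/T BAL (20.8%) and 1 lower (25.9%). Between proB ALL and B/T BAL, 1 was higher in proB ALL (9.85%) and 3 lower (14.2%). The same signals chose the set, so nothing is read from these shares.

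**Figure D3:**
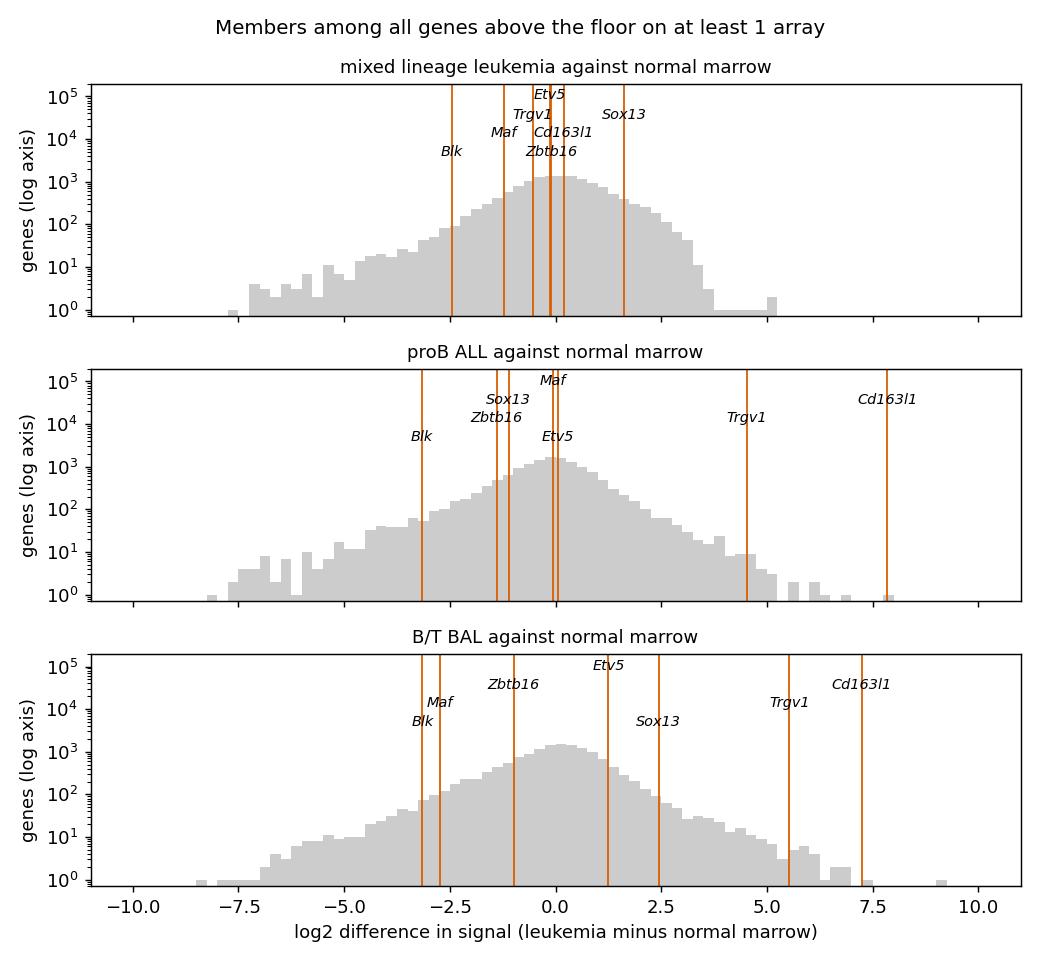
Histograms of the log2 difference from normal marrow over 14012 genes (log axis) in each leukemia, with the 7 measured gamma delta T-cell genes as vertical lines. Cd163l1 lies near the right edge at 7.85 in proB ALL and at 7.25 in B/T BAL, and near 0 in mixed lineage leukemia at 0.19.

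Several other transcription factors of gamma delta and early T cells were brighter in 1 or both of the AF4-MLL only leukemias. Of 14 measured, 8 were higher (10.7% of all genes) and 1 lower (17.0%) in proB ALL. In B/T BAL 8 were higher (14.4%) and none lower (16.6%), and in mixed lineage leukemia 3 were higher (18.4%) and 5 lower (14.7%). Their median log2 differences were 1.49 in proB ALL, 1.73 for B/T BAL and -0.11 in mixed lineage leukemia. With the mean over probe sets the first of these was 0.87, short of 2-fold. Gata3, which directs T-cell commitment, had 29.3 in normal marrow, 2567 in B/T BAL, 432 in proB ALL and 76.1 in mixed lineage leukemia. Bcl11b, a T-cell commitment factor, had 340, 9352, 231 and 370, high in B/T BAL alone. Lef1, an HMG box factor of developing lymphocytes, had 687, 16719, 3199 and 222, high in both AF4-MLL only leukemias. Tbx21, the T-bet factor of interferon gamma producing cells, had 449, 233, 4410 and 93.7, high in proB ALL alone.

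Surface and effector genes were divided among the leukemias as well. On the proB ALL array, calls of higher covered 8 of the 14 measured (10.7% of all genes) and calls of lower covered 2 (17.0%). For B/T BAL these calls numbered 5 (14.4%) and 3 (16.6%). The mixed lineage array had 1 such gene called higher (18.4%) and 3 called lower (14.7%). Cd27, a costimulatory receptor kept by gamma delta T cells that make interferon gamma, had 324 in normal marrow, 7067 in B/T BAL, 2000 in proB ALL and 54.3 in mixed lineage leukemia. Il18r1, an interleukin 18 receptor chain, had 1604, 250, 23633 and 1020, high in proB ALL and lowest in B/T BAL. Ifng, the cytokine interferon gamma, had 575 in proB ALL and lay below the floor elsewhere. Il17a, the cytokine interleukin 17, was chosen for mention after its values were seen. It exceeded the floor in mixed lineage leukemia alone, with 266 against 136 in normal marrow, 150 in B/T BAL and 107 in proB ALL. The log2 difference of 0.76 from normal marrow was short of 2-fold, and the median signal of the mixed lineage array was 253.

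**Figure D4:**
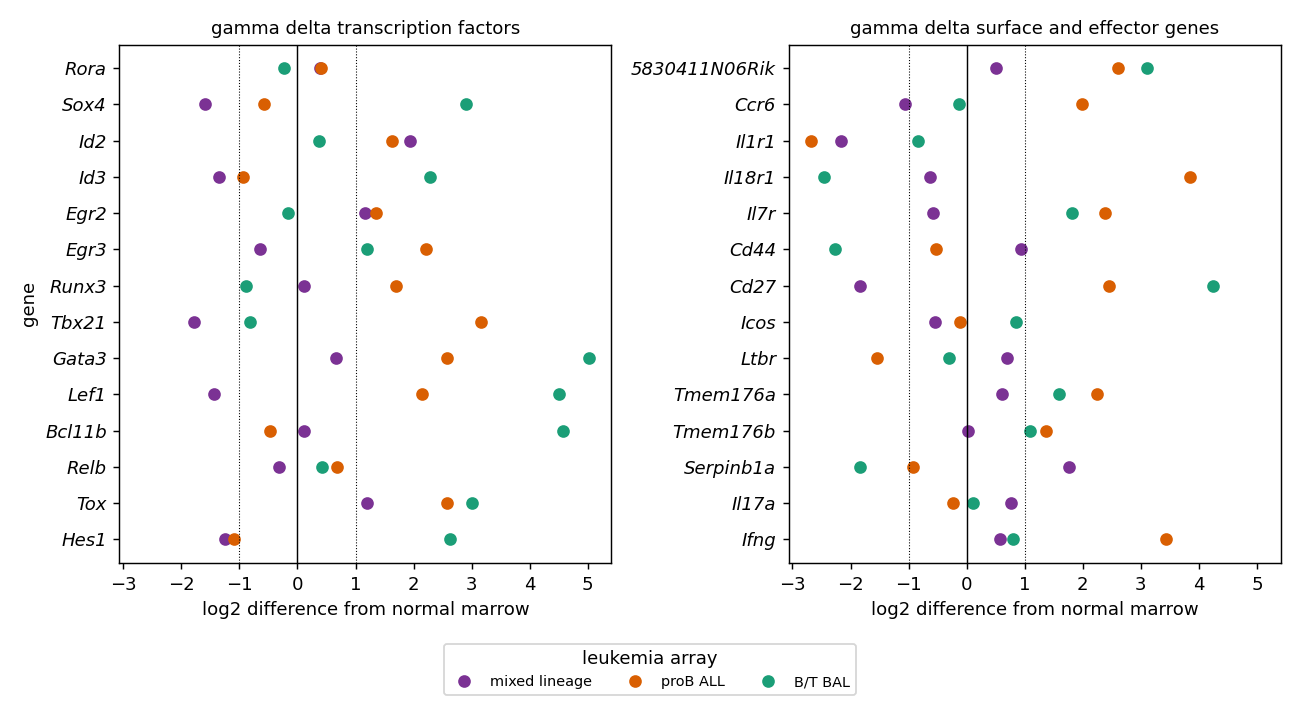
Log2 difference from normal marrow of 14 transcription factors (left) and 14 surface and effector genes (right), 1 point per leukemia array, with dotted lines at 2-fold. Gata3, Lef1, Cd27 and 5830411N06Rik are higher on both AF4-MLL only arrays, while Bcl11b stands out in B/T BAL alone and Tbx21, Il18r1 and Ifng in proB ALL alone.

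Of the interleukin 23 receptor partners, Il12rb1, the chain that pairs with Il23r, had 226 in normal marrow, 764 in B/T BAL, 1257 in proB ALL and 367 in mixed lineage leukemia. It was brighter on both AF4-MLL only arrays, by 3.37-fold in B/T BAL and 5.55-fold in proB ALL over normal marrow. Il12rb2, the partner chain in the interleukin 12 receptor, had 271 in B/T BAL and lay below the floor elsewhere. Il23a, a subunit of the cytokine itself, exceeded the floor in normal marrow alone, with 213. Stat3, which acts below this receptor, had 3519, 4044, 4589 and 6552, less than 2-fold from normal marrow on each leukemia array. Of the 7 measured partners, 1 was higher (10.7% of all genes) and 1 lower (17.0%) in proB ALL. In B/T BAL 2 were higher (14.4%) and none lower (16.6%), and in mixed lineage leukemia none was higher (18.4%) and 1 lower (14.7%). With 7 genes, nothing is read from these counts.

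The list of further scavenger receptor cysteine-rich proteins held Cd5, Cd6, Cd163 and Cd5l, and none of these 4 was bright on both AF4-MLL only arrays alone. Family members besides these, Cd163l1 and 5830411N06Rik were not examined. Cd5, a T-cell surface protein, had 299 in normal marrow, 4297 in B/T BAL, 128 in proB ALL and 240 in mixed lineage leukemia, and Cd6, its relative, had 168, 1759, 90.8 and 36.1. Both were high in B/T BAL alone. Cd163, a macrophage receptor, had 2084, 78.2, 693 and 481, and Cd5l, a secreted macrophage protein, had 6667, 363, 2411 and 770, each highest in normal marrow.

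Genes of other lymphocytes differed along with Cd163l1 and Trgv1. In proB ALL all 8 measured natural killer genes were higher than in normal marrow (10.7% of all genes), with summed signals of 180446 against 12768. Ncr1, a natural killer receptor, had 4694 against 251. In B/T BAL 1 of these 8 genes was higher (14.4%) and 4 lower (16.6%), with a sum of 53329, and Ncr1 lay below the floor at 139. Gzma, a granule protease chosen for mention after its values were seen, gave 52157 of that sum, and the other 7 genes summed to 1172 in B/T BAL against 11212 in normal marrow. Of 12 measured alpha beta and pre-T genes, 11 were higher (14.4% of all genes) and none lower (16.6%) in B/T BAL. In proB ALL 6 were higher (10.7%) and 2 lower (17.0%). Their summed signals were 4182 in normal marrow, 127702 in B/T BAL, 27220 in proB ALL and 2313 in mixed lineage leukemia. Cd3e, a chain of the complex that every T-cell receptor needs, had 11474 in B/T BAL but 32.3 in proB ALL and 43.8 in mixed lineage leukemia, against 372 in normal marrow. The other chains of this complex, chosen for mention after their values were seen, were higher in proB ALL than in normal marrow, with Cd3d at 12582 against 1002, Cd3g at 3290 against 632 and Cd247 at 3788 against 216. Of 5 measured genes of innate lymphoid and invariant NKT cells, 3 exceeded the floor on at least 1 array. None was higher in proB ALL (10.7%) or B/T BAL (14.4%). In each of these leukemias 1 was lower (17.0% and 16.6%), and with so few genes nothing is read from these counts. Of the myeloid genes, 1 of 7 measured neutrophil and monocyte genes was higher (10.7%) and 4 were lower (17.0%) in proB ALL. On the B/T BAL array 3 were lower (16.6%) and none higher (14.4%). The higher one in proB ALL was Ccr2, a monocyte chemokine receptor, at 11910 against 3169. Of 6 stromal and endothelial genes 5 were lower in proB ALL (17.0%), while 1 was higher (14.4%) and 2 lower (16.6%) in B/T BAL. The part of these cells in the values of Cd163l1 and Trgv1 was not tested.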

How the data were processed

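Total RNA of 4 mouse samples was hybridised to 1 Affymetrix array each. The deposited values are intensity values, 1 linear signal per probe set, which the authors computed using MAS5, according to the submitters' processing notes. The sources used here do not state its version or settings, and detection calls were not used. Of 45101 probe sets, 64 controls were left out. Of the rest, 34945 carried 1 gene in the platform annotation, 932 several and 9160 none, and only the first were named. Gene names and positions come from the RefSeq table of GRCm38.p6.

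Each gene took the probe set whose log2 values had the highest mean. No test was run, because each group was 1 array and the signals chose the genes. Calls were computed with pandas 2.3.3 and tried on simulated data. The members and lists were chosen with earlier results of these data known. Besides the genes of the set, those named were the 4 nearest in pattern, up to 4 of each related list with the largest difference from normal marrow, and Cd3e, Ncr1 and Adgre1. Il17a, Etv4, Gzma, Cd3d, Cd3g, Cd247 and Ccr2 are named outside this rule. Of 155 further list names in 17 lists, those without a probe set of 1 gene are not analysed here. Alternatives were other pseudocounts, floors, scalings and probe set rules. The number of arrays limits the precision.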

Additional observations from a re-analysis of the deposited data

Results flagged for a closer look

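Some genes lay at least 2-fold above normal marrow on one leukemia array and at least 2-fold below it on another. Each leukemia is 1 array, and the differences were not tested. Sox13 was above normal marrow in mixed lineage leukemia (log2 difference 1.63) and B/T BAL (2.44) and below it in proB ALL (-1.11), gaps of 2.74 and 3.55. Lef1 was above in proB ALL (2.14) and B/T BAL (4.51) and below in mixed lineage leukemia (-1.43), gaps of 3.57 and 5.94. Cd27 was above in proB ALL (2.45) and B/T BAL (4.24) and below in mixed lineage leukemia (-1.83), gaps of 4.28 and 6.07. Tbx21 was above in proB ALL (3.16) and below in mixed lineage leukemia (-1.78), a gap of 4.94. Il18r1 was above in proB ALL (3.84) and below in B/T BAL (-2.46), a gap of 6.30.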

How the results depend on the processing

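The 6 counts of genes called were recomputed under 9 alternatives, and 48 of 54 counts stayed within 1.5 times. In proB ALL against normal marrow 5 genes were called, and 3 with the pseudocount at the 50th percentile, with the floor at the 75th percentile or with dimmer signals set to the floor. In proB ALL against mixed lineage leukemia 5 were called, and 3 with the floor at the 75th percentile or under quantile normalization. In proB ALL against B/T BAL 4 were called, and 2 with the pseudocount at the 50th percentile. Of 378 log2 differences of single genes, 343 kept their call (higher, lower or neither), 23 called values were no longer called, 10 were newly called and 2 called values turned sign. Another 13 values turned sign without a call in the first place. The called values that turned were Maf in mixed lineage leukemia against normal marrow, at 0.60 with the mean over probe sets, and Zbtb16 in proB ALL against mixed lineage leukemia, at 0.23 without marked probe sets. The call was kept in all 54 values of Cd163l1 and all 54 of Blk, against 36 of 54 for Zbtb16. Cd163l1 in mixed lineage leukemia against normal marrow, with both signals below the floor, ranged from -0.25 under quantile normalization to 1.80 without marked probe sets. The lower call of Sox13 in proB ALL was lost with the pseudocount at the 50th percentile (-0.66), under quantile normalization (-0.94), with the floor at the 75th percentile and with dimmer signals set to the floor (-0.33). Sh2d1a was among the 4 genes nearest to Cd163l1 and to Trgv1 under all 9 alternatives, while 2 to 4 of the 4 nearest to Cd163l1 and 1 to 4 of those nearest to Trgv1 stayed the same. No paired analysis was possible because each group was 1 array. With 1 array per group, no alternative leaves out a replicate.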
